A study of Mus musculus with 24 samples.

Results

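The genes of fat cells and Pck1 were followed across the mouse gastrointestinal tract as a measure of the fat attached to each tissue piece. The set was defined by name as Adipoq, Cfd, Retn, Pparg, Lipe and Pck1, taking each probe set whose platform gene symbol was one of these. It held 5 of the 6 genes, with 1 probe set each, out of 8252 genes with a probe set of their own (10855 probe sets, and 12488 with the rest). The annotation used here paired no probe set with Cfd, which encodes adipsin, so Cfd is named only. Pck1 entered the set because its signal was higher in germ-free than in conventional corpus. That contrast is therefore described with no test for any of the genes.

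Total RNA of whole-tissue pieces was measured on 24 arrays in 8 groups of 3. Conventional mice, which carry a gut microbiota, and germ-free mice, which carry none, each gave 4 pieces: gastric corpus, jejunum, descending colon and rectum. Microbial status was the 1 difference between the mice that the labels name, and they give no allele, treatment, strain or age for any group. The labels describe the corpus as the stomach without its antrum, and the descending colon and rectum as neighbouring pieces at the end of the gut. They do not say whether surrounding fat was trimmed from the pieces. They also do not say which arrays came from the same mouse, so every p-value reflects only how far these arrays lie apart.

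White fat cells store triglyceride and surround much of the gut in the mesentery and omentum. They release hormones, among them adiponectin, encoded by Adipoq, and resistin, encoded by Retn. Pparg encodes PPAR gamma, the nuclear receptor that directs fat cell formation, and it is also made by gut epithelium. Lipe encodes hormone-sensitive lipase, which breaks down stored lipid. Pck1 encodes the cytosolic phosphoenolpyruvate carboxykinase, which serves gluconeogenesis in liver, kidney and intestine and glycerol synthesis in fat. Adipoq and Retn are thus close to restricted to fat cells, whereas Pparg, Lipe and Pck1 have other known sources in the gut wall.

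The promoters of Adipoq, Retn and Pck1 are shown because Adipoq and Retn had the highest correlation among the 5 genes across the arrays and Pck1 was followed beside them. Each is the 250 bases before the gene's start in RefSeq on build GRCm38.p6, plus strand, 5′ to 3′, and capitals mark matches to the motifs searched. The table held promoters for all 6 genes, 9 in total. The windows lie at chr16:23146286-23146535 for Adipoq, chr8:3655520-3655769 for Retn and chr2:173152823-173153072 for Pck1.
Adipoq: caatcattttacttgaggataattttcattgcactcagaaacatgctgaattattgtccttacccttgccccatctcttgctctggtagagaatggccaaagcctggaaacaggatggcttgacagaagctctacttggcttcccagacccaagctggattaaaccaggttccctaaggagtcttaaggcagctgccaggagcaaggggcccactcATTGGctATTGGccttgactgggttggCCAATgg
Retn: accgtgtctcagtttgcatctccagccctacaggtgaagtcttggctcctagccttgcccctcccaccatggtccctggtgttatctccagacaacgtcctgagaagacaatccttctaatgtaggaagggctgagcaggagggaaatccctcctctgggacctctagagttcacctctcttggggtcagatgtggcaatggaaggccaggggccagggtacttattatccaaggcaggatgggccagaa
Pck1: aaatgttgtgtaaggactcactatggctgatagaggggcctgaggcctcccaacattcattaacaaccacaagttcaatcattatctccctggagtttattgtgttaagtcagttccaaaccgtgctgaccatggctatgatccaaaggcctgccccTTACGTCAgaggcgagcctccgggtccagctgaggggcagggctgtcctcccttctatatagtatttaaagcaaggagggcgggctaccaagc
The capitals in the Pck1 window are TTACGTCA, the form of the cyclic AMP response element known from this gene, 93 bases before the start. It occurred on either strand in 147 of 32851 promoter windows of the same length, or 0.447%. The capitals in the Adipoq window are 3 matches to the CCAAT box, 1 on the plus and 2 on the minus strand, lying 34 to 7 bases before the start by their first letters. CCAAT is common, being found in 33.8% of windows. TGACGTCA (1.55% of windows), TTGCNNAA (9.56%), the direct repeat of AGGTCA with a gap of 1 base (0.0335%) and TATAAA (12.4%), searched on both strands, had no match in these 3 windows. Retn had no match to any of the 6 motifs. TTACGTCA and TGACGTCA differ in 1 letter, and no marked match overlaps another. A match is a description of letters only.

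Before the values, 3 arrays need naming because their region markers went against their labels. The array labelled conventional jejunum 3 had a signal of 13.8 for Apoa4, an apolipoprotein of jejunal enterocytes, and of 1625.8 for Hoxb13, a gene of the hindgut. The array labelled conventional rectum 1 had Apoa4 at 2765.9 and Hoxb13 at 41.7. The array labelled germ-free corpus 3 had Atp4a, the acid pump of the stomach, at 175.8 and Hoxb13 at 1399.4, whereas the other corpus arrays had Atp4a between 7435.3 and 14479.1. Member differences that use these arrays are given with and without them, the latter from a fit to the other 21 arrays. Among the rest, germ-free corpus 1 had a summed skeletal muscle signal of 5374 over 9 of 9 markers against 273 to 1390 on the other 23 arrays. Germ-free corpus 2 carried Car1, a colon carbonic anhydrase, at 1432.5 with Hoxb13 at 48.7. Germ-free rectum 1 kept its hindgut markers but had Atp4a at 1967.8. Germ-free jejunum 3 had Atp4a at 874.3, where the other jejunum arrays had 110.6 to 185.9. Germ-free descending colon 1 had Hoxb13 at 111.6, where the other descending colon arrays had 1082.2 to 1727.8, and Fabp2, an enterocyte fatty acid binding protein, at 4005.1. All the arrays named after the first 3 were kept in the fit to 21 arrays.

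**Figure D1:**
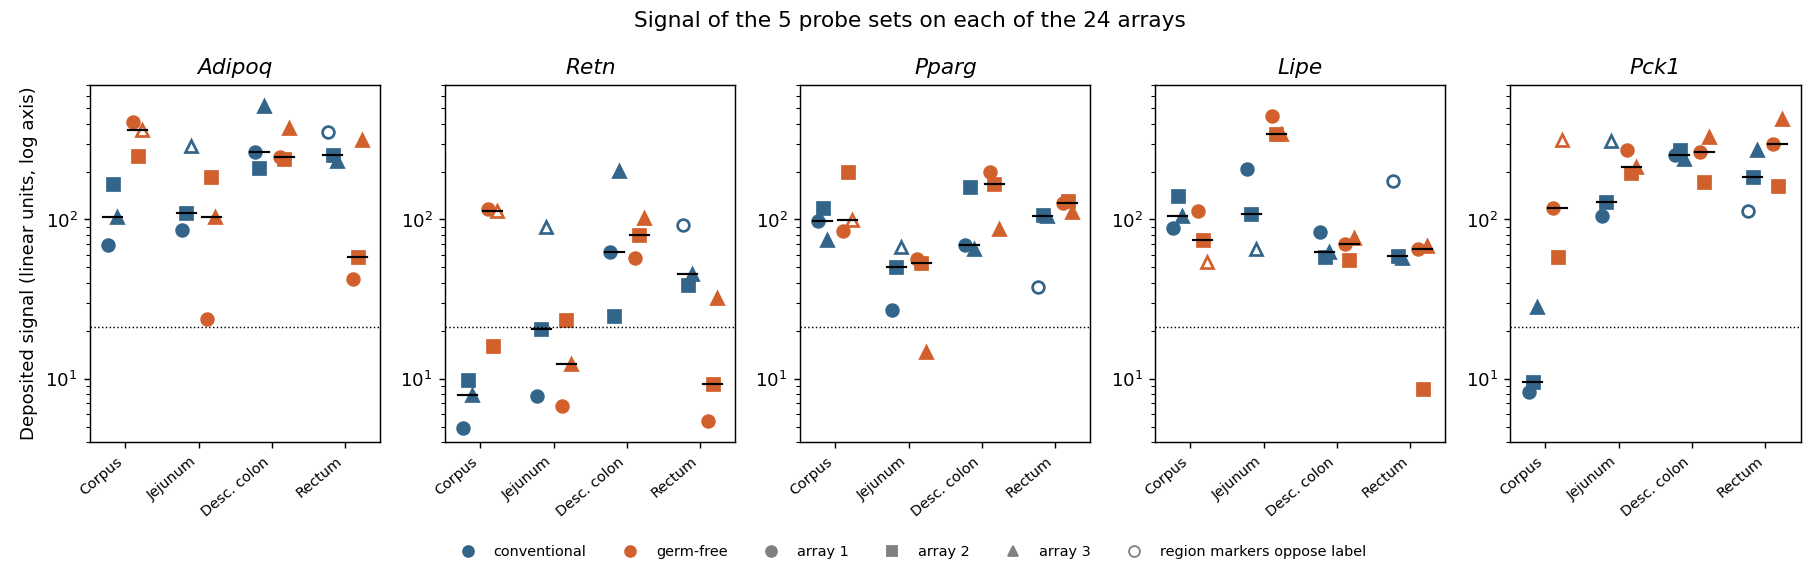
Deposited signal (linear units, log axis) of the 5 probe sets on each of the 24 arrays by region and status, with a bar at the median of each group of 3 and a dotted line at the floor of 21.2. Open symbols are the 3 arrays whose markers went against the label; Pck1 in conventional corpus and Lipe in germ-free jejunum are the groups that stand off from the others.

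Adipoq was measured on every array, with signals from 23.8 to 516 and a median of 235.3, and no array lay at the floor of 21.2 below which signals were not ordered. In conventional mice it read 68.9, 166.2 and 103.4 in corpus, 85.6, 110 and 290.2 in jejunum, 265.1, 210.8 and 516 in descending colon, and 352.5, 254.7 and 232.2 in rectum. In germ-free mice it read 411.2, 250.7 and 366.3 in corpus, 23.8, 185.1 and 103.9 in jejunum, 247.7, 238.4 and 377.9 in descending colon, and 42.1, 58.2 and 315.6 in rectum. The descending colon was high on all 6 arrays, while jejunum, conventional corpus and germ-free rectum held the low arrays. Single arrays of a group differed widely, most of all in germ-free rectum, where 2 arrays were low and 1 was high. Ordered by mean, the groups ran from germ-free corpus (343 ± 82.8, SD, n = 3) through both descending colon groups and conventional rectum to germ-free jejunum (104 ± 80.7). The highest mean was 3.29 times the lowest, and every pair of neighbours in that order overlapped. In bulk tissue, fewer fat cells and less of a transcript per fat cell cannot be told apart.

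Retn was low, with 10 of 24 arrays at or under the floor and 9 above the 51.5 that served as the filter. Conventional arrays read 4.9, 9.8 and 7.9 in corpus, 7.8, 20.6 and 89.8 in jejunum, 62.2, 24.8 and 202.4 in descending colon, and 92.3, 38.6 and 45.4 in rectum. Germ-free arrays read 115.8, 16 and 112.8 in corpus, 6.7, 23.4 and 12.3 in jejunum, 57.1, 79.7 and 102.8 in descending colon, and 5.4, 9.2 and 32.2 in rectum. All 6 descending colon arrays were above the floor and all 3 conventional corpus arrays were under it. The jejunum array at 89.8 is the one whose markers are those of hindgut. Neighbouring groups in the order of means overlapped throughout.

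Germ-free minus conventional differences of the fat hormones did not pass the test in any of the 3 tested regions. An adjusted p under 0.05 in limma, with Benjamini-Hochberg adjustment over 9033 probe sets, was taken as a call. In rectum Adipoq was lower in germ-free mice by estimate (log2 difference −1.58 ± 0.69, SE, n = 3 and 3, limma unadjusted p = 0.0319, adjusted p = 0.982). The ranges overlapped because germ-free rectum 3 read 315.6, and without the 3 opposed arrays the difference was −1.41. Germ-free rectum 1, at 42.1, had gastric gland markers summing to 11240 and squamous markers to 2735, against 517 to 873 and 64.6 to 112 in conventional rectum. Germ-free rectum 2, at 58.2, had sums of 2225 and 308, and germ-free rectum 3, at 315.6, had 860 and 156. Without germ-free rectum 1 alone the difference was −1.02, and the part of stomach tissue in these values was not tested. Retn in rectum differed by −1.16 ± 0.68 (limma adjusted p = 0.982) and by −0.78 without the opposed arrays, with all 3 germ-free arrays under all 3 conventional ones. Such a complete separation in that direction occurred in 4.42% of all tested probe sets. Of the 3 germ-free rectum arrays 2 lay at the floor for Retn, so both of its rectum sizes depend on the floor. In jejunum the differences were −0.86 ± 0.69 for Adipoq (limma adjusted p = 0.650) and −0.65 ± 0.68 for Retn (0.756), and without the opposed array −0.33 and 0.047. Both Retn values depend on the floor, where 2 of 3 arrays of each jejunum group lay. Without the opposed array, both conventional arrays left lay there. In descending colon they were −0.12 ± 0.69 for Adipoq (limma adjusted p = 0.986) and 0.19 ± 0.68 for Retn (0.975).

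In the corpus, which was used to choose the set, all 3 germ-free arrays were above all 3 conventional arrays for Adipoq, with a log2 difference of 1.67 ± 0.69, or 3.17-fold. In that direction 7.79% of all tested probe sets were separated as completely. Without germ-free corpus 3 the Adipoq difference was 1.60. Fabp4, another gene of fat cells, read 88.8, 97.1 and 91.8 in conventional corpus. In germ-free corpus it read 96.9, 86.8 and 185.5, the last on germ-free corpus 3. Retn was at the floor on every conventional corpus array and on germ-free corpus 2, so the groups met at the floor. The fitted Retn difference of 1.62 ± 0.68 (1.22 without germ-free corpus 3) depends on that floor and gives no fold. The skeletal muscle sum was high on germ-free corpus 1 only (5374.1, against 385.4 and 457.6 on arrays 2 and 3). Car1 read 15.7, 1432.5 and 1827.8 on the germ-free corpus arrays, in order. The part of these other tissues in the corpus values was not tested.

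The adipocyte marker list of 8 genes had 6 on the array, namely Adipoq, Retn, Fabp4, Lep, Car3 and Cidec. Their summed signal ran from 632 to 797 in conventional corpus, 1011 to 1752 in germ-free corpus, 571 to 994 in conventional jejunum and 412 to 786 in germ-free jejunum. It ran from 998 to 1622 in conventional and 1076 to 1338 in germ-free descending colon, and from 867 to 1274 in conventional and 405 to 1044 in germ-free rectum. The highest array was germ-free corpus 1 and the lowest germ-free rectum 1. The upper ends in conventional jejunum and conventional rectum were the opposed arrays, and the other arrays there reached 574.6 and 1021.7. Markers listed at or under the floor on all 3 arrays of a group were Retn and Cidec in conventional corpus, and Cidec in germ-free corpus and in germ-free rectum. The sum is carried in part by Lep, the leptin gene, whose probe set read 176.2 to 535.6. Cidec, a lipid droplet protein of fat cells, read 61.3, 55.9 and 13.3 in conventional and 81.7, 102.4 and 31.3 in germ-free jejunum, and 69.9 on conventional rectum 1. On the other arrays Cidec reached 49.4, in conventional descending colon 3.

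**Figure D2:**
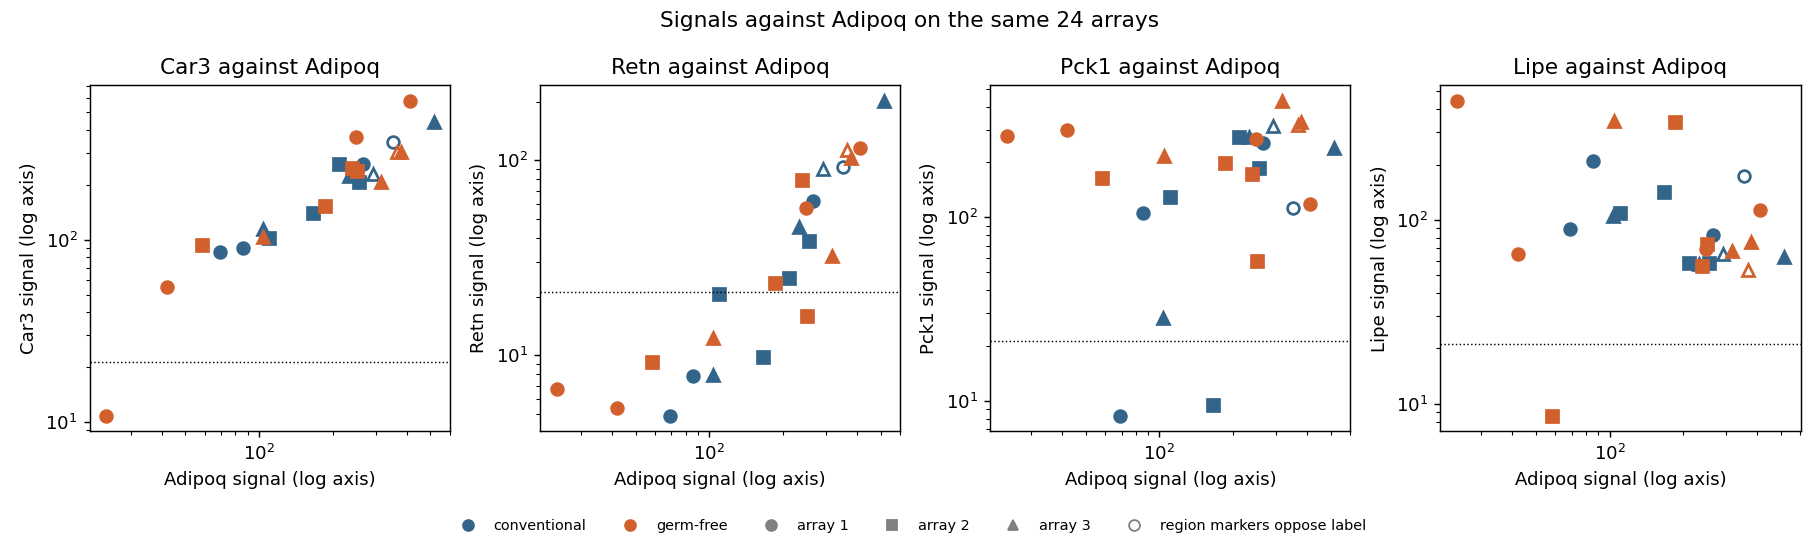
Signals of Car3, Retn, Pck1 and Lipe against the Adipoq signal on the same 24 arrays, log axes, with the floor of 21.2 as a dotted line and open symbols for the 3 opposed arrays. Car3 and Retn rise with Adipoq (Pearson r of 0.96 and 0.76 on floored log2 signals), while Pck1 and Lipe do not (0.22 and −0.30).

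Adipoq and Retn were the pair that ran together among the 5 genes. Over the 24 arrays their floored log2 signals had a Pearson r of 0.76 and a Spearman rho of 0.89, and r was 0.53 after the mean of each group was taken off. Retn stood at rank 6 of the 9032 other tested probe sets by r with Adipoq. Arrays share region and microbial status, and the labels do not say which share a mouse, so the correlations describe the arrays and carry no test. Adipoq against Pck1 gave r = 0.22 (rank 2450), against Pparg 0.17 (rank 3157) and against Lipe −0.30 (rank 8282). Retn against Pck1 gave 0.39 (rank 577), and 0.45 after group means were taken off, against 0.53 for Adipoq and Retn. Adipoq against Pck1 then gave 0.27, and Pparg against Lipe gave −0.70.

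The single-gene probe sets most like Adipoq were those of Car3 (r = 0.96), Scd1 (0.87 and 0.86 for its 2 probe sets), Plin4 (0.85) and Retn. Car3 is a carbonic anhydrase abundant in fat and skeletal muscle, Scd1 the stearoyl-CoA desaturase, and Plin4 a lipid droplet coat protein. Car3 read 86.1, 140.9 and 114.3 in conventional and 579.7, 239.8 and 304.1 in germ-free corpus, and 10.8, 152.9 and 103.8 in germ-free jejunum. The array lowest for Adipoq, germ-free jejunum 1, was also lowest for Car3, and germ-free corpus 1, which carried skeletal muscle markers, was highest for Car3. After group means were removed, r with Adipoq was 0.93 for Car3 and 0.86 for Plin4, so the likeness was also present among arrays of one group. For Retn the list was Scd1 (0.77 and 0.76), Nnat (0.76), the proteolipid neuronatin gene, Adipoq (0.76) and Car3 (0.75).

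**Figure D3:**
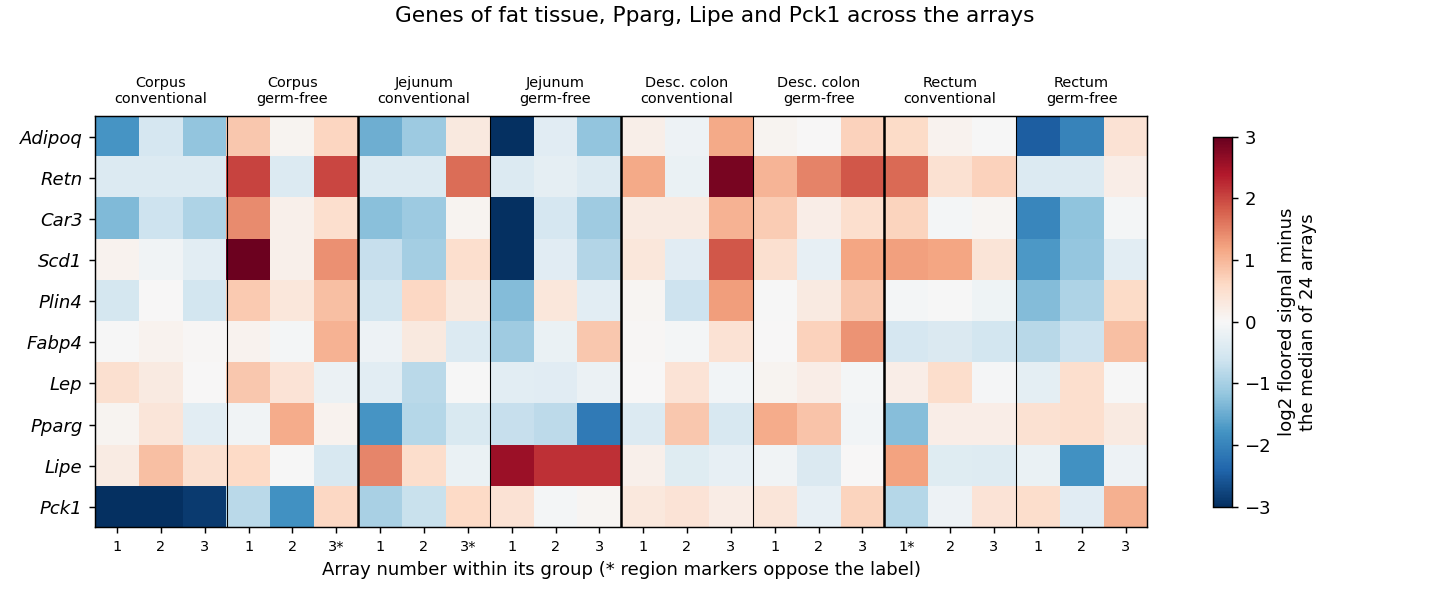
Floored log2 signal of fat tissue genes, Pparg, Lipe and Pck1 on each array (columns) minus the gene's median over the 24 arrays, on a colour scale that ends at −3 and 3. Adipoq, Retn, Car3, Scd1 and Plin4 are low together on germ-free jejunum 1 and germ-free rectum 1, and Pck1 is low on the conventional corpus arrays.

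Pparg, the receptor gene, was measured at modest levels, from 14.8 to 199.5 with a median of 92.1 and 1 array at the floor. Conventional arrays read 97.2, 117.4 and 74.3 in corpus, 26.9, 50.5 and 66.7 in jejunum, 68.7, 160.2 and 65.6 in descending colon, and 37.8, 106 and 105.5 in rectum. Germ-free arrays read 85.1, 199.5 and 98.7 in corpus, 56.6, 53.2 and 14.8 in jejunum, 197.3, 166.2 and 86.9 in descending colon, and 126.9, 130.3 and 111.1 in rectum. Jejunum was the low region in both kinds of mice, and the rectum array at 37.8 is the one with jejunal markers. Neighbouring groups overlapped in the order of means, from 150 ± 56.9 (SD, n = 3) in germ-free descending colon to 41.5 ± 23.2 in germ-free jejunum. In conventional mice jejunum lay below corpus on all arrays (log2 difference −1.08 ± 0.49, limma adjusted p = 0.140), a separation seen in that direction in 21.2% of tested probe sets. Without the 3 opposed arrays the difference was −1.36 ± 0.49, or 2.57-fold lower, and it passed the test (limma adjusted p = 0.0469), with 2 jejunum arrays. Over the other alternatives and single left-out arrays, the limma adjusted p for this difference reached 0.446.

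Status differences of Pparg did not pass the test. They were −0.17 ± 0.49 in jejunum (limma adjusted p = 0.939; 0.12 without the opposed arrays), 0.66 ± 0.49 in descending colon (0.738) and 0.71 ± 0.49 in rectum (0.982). In rectum all germ-free arrays were above all conventional ones, as for 6.68% of tested probe sets. Conventional rectum 1, the array with jejunal markers, set much of that value, which was 0.21 without the opposed arrays. The corpus difference, given as a description, was 0.33 ± 0.49, and 0.46 without the opposed arrays. The genes most like Pparg over the 24 arrays were Mcee (r = 0.90), the methylmalonyl-CoA epimerase, Tnfrsf21 (0.86), a death receptor, Rflnb (0.85), Trp53inp2 (0.82) and Foxa1 (0.82), a transcription factor of endoderm epithelium. None of these 5 is in the adipocyte list, and Mcee was low in jejunum as Pparg was.

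Lipe, the lipase gene, had its highest signals in jejunum of germ-free mice. There it read 445.5, 343.1 and 343.6, against 208.1, 108.4 and 65.5 in conventional jejunum. All 3 germ-free arrays were above all 3 conventional ones, and all 21 other arrays lay at 208.1 or below. The third conventional array, at 65.5, is the one with hindgut markers, and the 2 others are the higher ones of the group. The difference was 1.72 ± 0.47 on the log2 scale, or 3.29-fold, with a limma unadjusted p of 0.0016 and an adjusted p of 0.106, so it was not called. Without the opposed arrays it was 1.32 ± 0.41, or 2.49-fold (limma adjusted p = 0.167), and over all alternatives the adjusted p ranged from 0.0731 to 0.361. Complete separation in this direction was seen in 6.90% of tested probe sets.

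Outside germ-free jejunum Lipe was flatter. Corpus arrays read 89, 141.3 and 105.1 in conventional and 113.8, 73.9 and 53.7 in germ-free mice. Descending colon arrays read 83.1, 58.4 and 62.8 in conventional and 69.8, 56 and 76.2 in germ-free mice. Rectum arrays read 173.7, 58.6 and 57.3 in conventional and 65.1, 8.6 and 67.7 in germ-free mice. Most of these lay between 53.7 and 141.3, and both exceptions were in rectum, the high one being the array with jejunal markers. Germ-free minus conventional was −0.011 ± 0.47 in descending colon (limma adjusted p = 1) and −0.88 ± 0.47 in rectum (0.982), the latter −0.35 without the opposed arrays. The corpus difference, as a description, was −0.52 ± 0.47, and −0.26 without the opposed arrays. The moderated F test for unequal status effects across jejunum, descending colon and rectum gave Lipe an unadjusted p of 0.00296 and a limma adjusted p of 0.908.

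Lipe did not run with the fat hormones. In germ-free jejunum 1 it had its highest signal of the study while Adipoq had its lowest, 23.8. In germ-free mice, as a description, jejunum was 2.29 ± 0.47 above corpus and 2.49 ± 0.47 above descending colon on the log2 scale for Lipe, and 2.12 ± 0.69 below corpus for Adipoq. The genes most like Lipe were Rdh7 (r = 0.92), a retinol dehydrogenase, Slc7a8 (0.90), an amino acid transporter, Tmed4 (0.89), Zfp703 (0.89) and Sgpl1 (0.89), the sphingosine phosphate lyase. Rdh7 read 1979.9, 1465.6 and 1115.6 in germ-free jejunum and 487.6, 617.2 and 32.5 in conventional jejunum, so the same 2 conventional arrays were the intermediate ones. The summed jejunal enterocyte markers, 7 of 9 on the array, ran from 33448 to 49914 in germ-free jejunum and 458 to 42577 in conventional jejunum. The low end of the latter is the opposed array, and the part of these markers in the Lipe difference was not tested.

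Pck1, the carboxykinase gene, was lowest in conventional corpus, and every array labelled with another region read 105 or above. Conventional corpus arrays read 8.3, 9.5 and 28.1, with 2 of 3 at the floor. Conventional jejunum arrays read 105, 129.3 and 312.8, descending colon 253.8, 273 and 239.3, and rectum 112.6, 185 and 273.4. The conventional corpus arrays were below each of these, and the lowest rectum array was the one with jejunal markers while the highest jejunum array was the one with hindgut markers. Germ-free arrays read 117.6, 58 and 316.4 in corpus, 275.1, 196.5 and 214 in jejunum, 265.4, 172.5 and 327.6 in descending colon, and 297.2, 162.9 and 430.5 in rectum. Group means ran from 297 ± 134 (SD, n = 3) in germ-free rectum to 15.3 ± 11.1 in conventional corpus, the latter with 2 arrays under the floor. Only the last step, from germ-free to conventional corpus, was between groups that did not overlap.

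Along the conventional tract, Pck1 was higher in jejunum than in corpus by 2.80 ± 0.50 on the log2 scale, or 6.95-fold (limma adjusted p = 0.0006), on all arrays. The floor sets this size, since 2 of the 3 corpus arrays lay at it, and with the floor at 6.2 the difference was 3.63 ± 0.55. It was the 1 member of 5 called in this comparison, which called 18.8% of all tested probe sets, 7.85% as higher. Complete separation in this direction was seen in 15.8%. The same conventional corpus arrays entered the contrast for which Pck1 was chosen, so the call does not stand apart from that choice. Without the opposed arrays the difference was 2.32 ± 0.37, or 5.003-fold, and the limma adjusted p ranged from 7.9e-05 to 0.0089 over all alternatives. In that fit 2 of 5 members were called, Pck1 as higher and Pparg as lower, where 25.8% of all tested probe sets were. Adipoq (0.40 ± 0.69), Retn (0.69 ± 0.68) and Lipe (0.054 ± 0.47) gave limma adjusted p of 0.762, 0.553 and 0.962 between jejunum and corpus. Without the opposed arrays these differences were −0.12, 0 and 0.45. The 0 of Retn arose because every jejunum and corpus array left lay at the floor. With all arrays its 0.69 depended on the floor too, since only the opposed jejunum array lay above it.

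The corpus contrast that chose Pck1 had a log2 difference of 2.47 ± 0.50, and all 3 germ-free arrays were above all conventional ones. With the floor at 6.2 it was 3.31 ± 0.55, so the size depends on the floor. The highest germ-free value, 316.4, came from germ-free corpus 3, whose markers are those of hindgut, where Pck1 is at that level. Without it the difference was 1.83 ± 0.37 at the floor of 21.2, from arrays at 117.6 and 58. On the same 2 arrays Adipoq read 411.2 and 250.7, Car1 15.7 and 1432.5, and Zg16, a goblet cell lectin, 105.4 and 310.8. Conventional corpus arrays had Zg16 between 5.4 and 26.6 and Car1 between 9.2 and 12.6. Adipoq and Zg16 thus lay above their conventional range on both arrays, and Car1 was above the floor on germ-free corpus 2 only. Zg16 was named for its likeness to Pck1 over the 24 arrays, which include these. The part of fat or of intestinal tissue in the Pck1 difference was not tested. The summed hindgut markers, 6 of 7 on the array, ran from 4106 to 9266 in germ-free and 5114 to 6082 in conventional corpus, with Hoxd13, Hoxa13 and Car1 at or under the floor on all conventional arrays. Most of that sum in conventional corpus is Car2, which the stomach makes as well.

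In jejunum the germ-free minus conventional difference of Pck1 was 0.48 ± 0.50 (limma adjusted p = 0.749). Without the opposed array it was 0.96 ± 0.37, or 1.94-fold (limma adjusted p = 0.268), so it was not called. The 3 germ-free arrays then lay above both conventional ones. Over all tested probe sets, complete separation in this direction was more frequent in that fit than the 6.90% seen with all arrays. With 3 arrays against 2, the separation of Pck1 is only a description. The differences were −0.048 ± 0.50 in descending colon (limma adjusted p = 0.996) and 0.62 ± 0.50 in rectum (0.982), the latter 0.29 without the opposed arrays. The genes most like Pck1 over the 24 arrays were Cnot8 (r = 0.92), a deadenylase subunit, Papss1 (0.90), which makes the sulfate donor, Mkrn1 (0.90), Zg16 (0.89) and Car4 (0.88), a membrane carbonic anhydrase of colon. Car4 read 63.7, 77.6 and 46.1 in conventional corpus and 66.2, 164.1 and 3899.1 in germ-free corpus. Germ-free corpus 1 thus lay within the conventional range for Car4. On that array Cnot8 (115.6), Papss1 (457.3), Mkrn1 (132.5) and Zg16 (105.4) lay above every conventional corpus array, as Pck1 did. The highest conventional corpus values of these were 90.9, 373.5, 112.9 and 26.6. These genes were chosen by their r with Pck1 over arrays that include the corpus arrays. Their running with Pck1 there follows in part from that choice and is only a description. None of these genes is among the 5 most like Adipoq.

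**Figure D4:**
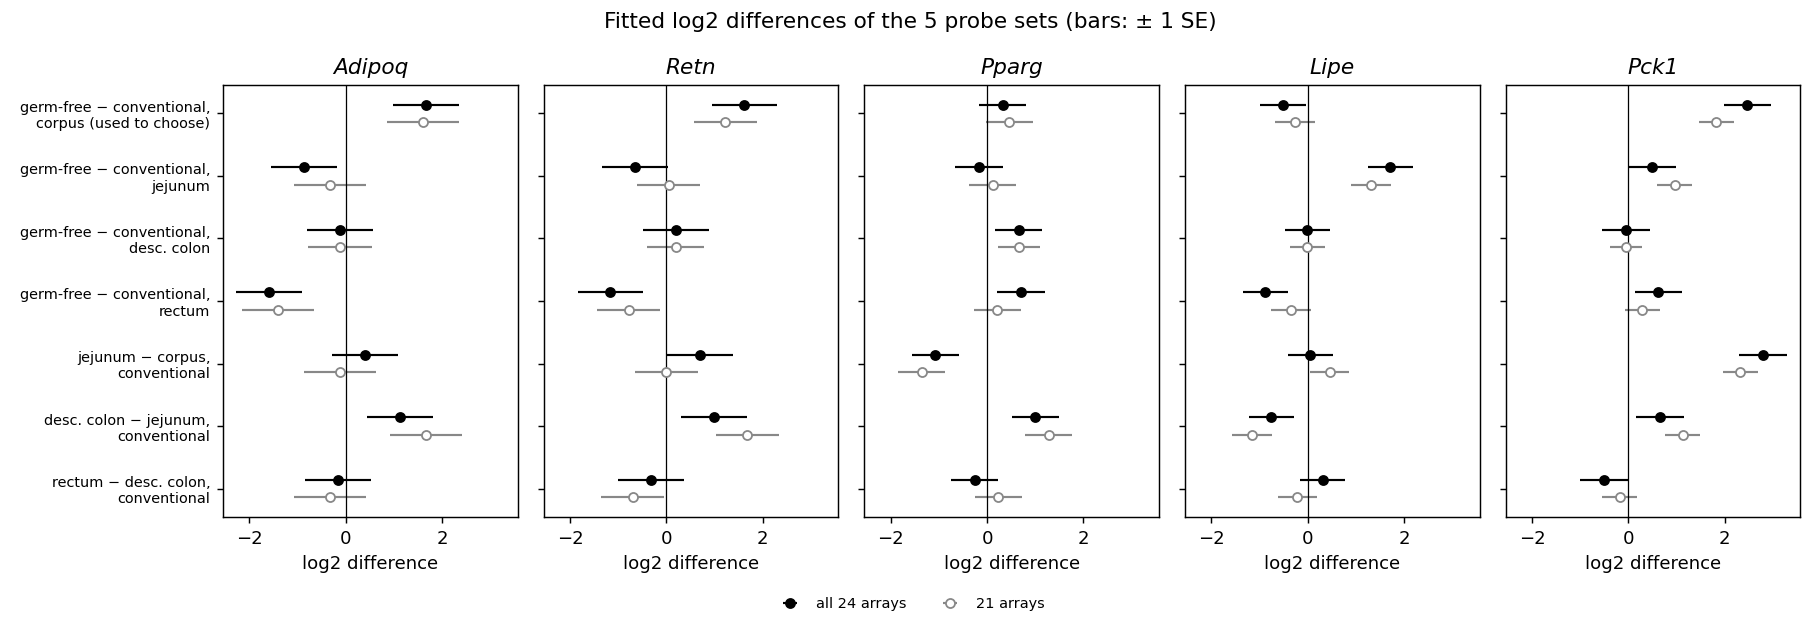
Fitted log2 differences ± 1 SE of the 5 probe sets for the 4 germ-free minus conventional contrasts and the 3 steps along the conventional tract, with all 24 arrays (filled) and with the 21 arrays left without the 3 opposed ones (open). Pck1 in jejunum minus corpus is the 1 tested difference called with all arrays, and the corpus row is a description.

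Counted over the 5 members, germ-free minus conventional called 0 in jejunum, where limma called 0.465% of all tested probe sets, and 1 member had an unadjusted p under 0.05, Lipe. In descending colon it called 0 of 5 against 0.0111% of all, with 0 at an unadjusted p under 0.05. In rectum it called 0 of 5 against 0.0111%, with 1, Adipoq, at an unadjusted p under 0.05. Status effects that differed among the 3 regions were called for 0 of 5 members and 0.0332% of all, with 1 member, Lipe, at an unadjusted p under 0.05. For conventional descending colon against jejunum, limma called 0 of 5 members and 0% of all, although 989 probe sets and 0 members had an unadjusted p under 0.05. Between rectum and descending colon it called 0 of 5 and 0.0111% of all, with 0 members at an unadjusted p under 0.05. Comparisons that use the same jejunum, corpus or colon arrays are not separate evidence.

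The step from conventional jejunum to descending colon depended on the array with hindgut markers that is labelled jejunum. With it the log2 differences were 1.13 for Adipoq, 0.98 for Retn, 1.00 for Pparg, −0.76 for Lipe and 0.66 for Pck1 (limma adjusted p from 0.577 to 0.689 for Adipoq, Retn, Lipe and Pck1 and 0.469 for Pparg). Without the 3 opposed arrays they were 1.66, 1.68, 1.28, −1.16 and 1.13, and none of the 5 pairs of ranges overlapped. Both sizes for Retn depend on the floor, since the 2 jejunum arrays other than the opposed one lay at it. In that fit 11.5% of all tested probe sets were called and 0 of 5 members, the lowest limma adjusted p being 0.0528 for Pck1. Separation upward was then seen in 20.9% of probe sets and downward in 17.8%.

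Other genes of fat cells were taken from a list of 23, of which 20 were on the array and 17 were tested with 22 probe sets. Germ-free minus conventional called 0 of the 17 in jejunum, descending colon or rectum. Their median log2 differences were 0.12, 0.085 and −0.30, beside −0.018, 0.065 and 0.062 over all tested probe sets. Without the opposed arrays they were 0.17, 0.085 and −0.17. In corpus, as a description, the median was 0.058 beside 0.044 over all, with 12 of the 22 probe sets positive. Between conventional jejunum and corpus 10.9% of all tested probe sets were called lower and 7.85% higher. In this comparison 5 of the 17 were lower in jejunum than in corpus and 0 were higher, with a median of −0.41 beside −0.041. These were Cidea, a lipid droplet protein (21.3 ± 10.9 against 237 ± 70.8, SD, n = 3, limma adjusted p = 0.0002), Slc2a4, the insulin-responsive glucose transporter (55.3 ± 19.9 against 212 ± 19.2, limma adjusted p = 0.0020), Lpl, the lipoprotein lipase, Cebpa, a transcription factor, and Gpd1 in 1 of its 2 probe sets. In the fit to 21 arrays 6 were lower and 1 was higher, beside 14.3% and 11.5% of all tested probe sets. Cebpa was not among those called in that fit (limma adjusted p = 0.0605). Adipoq and Retn were not called in that comparison. The strongest signals of the list were those of Adipor2, an adiponectin receptor, Cebpa and Cav1, the caveolin gene, with means of 1018, 968 and 692 over 24 arrays, and all 3 genes are also expressed outside fat.

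Partners of Lipe in lipid breakdown and triglyceride synthesis were 20, of which 14 were on the array and tested. None of the 14 was called between germ-free and conventional mice in jejunum, descending colon or rectum, with medians of 0.051, 0.089 and −0.0078, and 0.24, 0.089 and 0.029 without the opposed arrays. Between conventional jejunum and corpus 5 were lower and 1 was higher, with a median of 0 beside −0.041, where 10.9% and 7.85% of all tested probe sets were. The fit to 21 arrays had 6 lower and 3 higher, beside 14.3% and 11.5% of all. The higher one was Dgat1, which makes triglyceride in enterocytes, at 1808 ± 1371 against 188 ± 12.0 (SD, n = 3, limma adjusted p = 0.0216). The lower ones were Me1, the malic enzyme (161 ± 44.5 against 1469 ± 349, limma adjusted p = 0.0023), Abhd5, the lipase activator, Gpam, Mgll in 1 of its 2 probe sets, and Fasn, the fatty acid synthase. Besides Dgat1 the strongest signals were those of Pnpla2, the adipose triglyceride lipase, and Acly, with means of 818 and 751.

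Around Pck1, the list of gluconeogenesis and glycerol synthesis had 25 genes, 18 on the array and 17 tested. Germ-free minus conventional called 0 in the 3 tested regions, with medians of 0.050, 0.12 and −0.14, and 0.022, 0.12 and 0.036 without the opposed arrays. Conventional jejunum against corpus had 2 genes higher and 2 lower, with a median of 0.55 beside −0.041, against 7.85% and 10.9% of all tested probe sets. Higher were Hnf4a, a transcription factor of intestinal epithelium and liver (459 ± 82.1 against 64.1 ± 22.9, SD, n = 3, limma adjusted p = 0.0015), and Fbp2, a fructose bisphosphatase (817 ± 373 against 217 ± 42.4, limma adjusted p = 0.0046). Lower were Cebpb and Pcx, the pyruvate carboxylase, in 1 of its 2 probe sets. Without the opposed arrays 9 genes were higher and 2 lower, against 11.5% and 14.3% of all, with Fbp1 and G6pc, the glucose phosphatase, among the added ones (limma adjusted p = 4.0e-08 and 0.0014). The strongest signals were those of Mdh2, Pgk1 and Got2, with means of 3040, 1262 and 562.

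Partners and targets of PPAR gamma were 16, with 13 on the array and 10 tested. In jejunum 1 of these was higher in germ-free mice, Ppara, the related receptor of fatty acid oxidation (567 ± 202 against 160 ± 57.4, SD, n = 3, 3.60-fold, limma adjusted p = 0.0231, in a comparison calling 0.465% of all tested probe sets), with a list median of 0.23 beside −0.018. In descending colon and rectum limma called 0 of the 10, with medians of 0.14 and −0.043. Ppara remained called in the fit to 21 arrays (2.83-fold, limma adjusted p = 0.0209), where the medians of the 3 regions were 0.15, 0.14 and −0.12. Between conventional jejunum and corpus 1 of the 10 was higher, Nrip1, a corepressor (429 ± 41.9 against 213 ± 24.5, SD, n = 3, limma adjusted p = 0.0121). In that comparison 7.85% of all tested probe sets were called higher. The strongest signals were those of Klf4, Hpgd and Rxrb, with means of 2116, 779 and 558.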

How the data were processed

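The authors deposited 1 table of signal intensity on a linear scale for 24 mouse arrays. From the values, a trimmed mean (middle 96%) of 200.101 to 200.138 was common to all arrays. No algorithm, software or scaling method is named in the labels, and array medians ranged from 68.6 to 103.5. The platform annotation named the probe sets: 10855 had 1 gene, 396 several and 1237 none.

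A floor of 21.2, the 25th percentile over the whole table, was applied, which 17.6% to 28.5% of values on an array met, and log2 was taken. Fold differences are on this floored scale, and group ranges were compared after the floor. Probe sets above 51.5 (40th percentile) on at least 3 arrays were tested after 66 control probe sets were left out, giving 9033, of which 8101 had 1 gene (6650 genes). All 5 members passed. In R 4.3.3, limma 3.58.1 (statmod 1.5.0 for the block) fitted 1 mean per group over the 8 groups, with moderated variances and an intensity trend. p-values were two-sided with Benjamini-Hochberg adjustment. On simulated data for the jejunum comparison with 9033 probe sets, 35 of 100 changes of 1 and 72 of 100 changes of 2 on the log2 scale were recovered, with 12 false calls. The number of arrays limits the precision.

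The members and lists were chosen with earlier results of these data known. Named genes were all members, the 5 single-gene probe sets of highest Pearson r with each member, and of each list the genes called in a tested comparison (up to 6 of lowest p) and the 3 of highest signal. Same-numbered arrays deviated together weakly or not at all (correlations from -0.074 to 0.22 within the comparisons tested). The replicate block, by status and array number, had a consensus correlation of 0.12. These were low, so no pairing was used in the main fit. Promoters were matched to RefSeq by symbol.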

Additional observations from a re-analysis of the deposited data

How the results depend on the processing

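The count of members called kept its value under every alternative except 1: without the 3 opposed arrays, jejunum against corpus in conventional mice called 2 members in place of 1, since Pparg passed. Lower floor, quantile normalization, no filter, the replicate block, groups compared alone and each single array left out gave the same counts of members (0, 0, 0, 1, 0 and 0). Of the tested member differences, 173 of 180 kept direction and call under the other alternatives and 162 of 180 with a single array left out. With the 3 arrays left out, signs turned for Retn in germ-free minus conventional jejunum (0.047), Pparg there (0.12), Adipoq in jejunum minus corpus (-0.12), and Pparg (0.24) and Lipe (-0.22) in rectum minus descending colon. With quantile normalization Retn turned in descending colon (-0.012). Signs also turned with single arrays left out, and these status differences then ranged from -0.99 to 0.047 (Retn) and -0.54 to 0.29 (Pparg) in jejunum, and from -0.39 to 0.25 (Adipoq), -0.53 to 0.98 (Retn), -0.11 to 0.14 (Lipe) and -0.25 to 0.21 (Pck1) in descending colon. Conventional jejunum minus corpus ranged from -0.12 to 0.76 (Adipoq) and -0.38 to 0.45 (Lipe), and rectum minus descending colon from -0.43 to 0.22 (Adipoq), -1.04 to 0.47 (Retn), -0.51 to 0.24 (Pparg) and -0.22 to 0.58 (Lipe). The cause was not tested. With the floor at 6.2, the 10th percentile, Retn in corpus differed by 2.92.

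Counts over all probe sets moved more. Germ-free minus conventional jejunum had 42 calls, 23 with quantile normalization, 27 with the replicate block, 0 with the groups compared alone and 10 to 265 with an array left out. Descending colon had 1, then 2 with quantile normalization, 5 with no filter, 8 without the opposed arrays, 0 alone and 1 to 3 with an array left out. Rectum had 1, then 0 alone. Jejunum against corpus had 1694, and 1017 to 1920 with an array left out. Descending colon against jejunum had 0, then 1 with no filter, 1039 without the 3 arrays and 540 without conventional jejunum 3. Rectum against descending colon had 1, then 2 with no filter. Unequal status effects had 3, then 1 with the lower floor, 9 with no filter and 2 to 31 with an array left out. The array numbers were not taken to pair the samples, and the replicate block changed no call of a member.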

Other observations

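A probe set with no gene in the annotation, 99671_at, ran with the fat hormones. It had the second highest Pearson r with Adipoq (0.96 over 24 arrays, 0.95 after group means were removed) and the highest with Retn (0.82). It read 69.1, 165.6 and 96.9 in conventional and 684.2, 236.9 and 554.5 in germ-free corpus, and 460.5, 298.9 and 1518.2 in conventional and 352.9, 414.6 and 668.4 in germ-free descending colon. Conventional descending colon 3 was its highest array, as it was for Adipoq and Retn. This probe set was singled out after its values were seen.

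Markers of other tissues and cell types were summed per array over those on the array. Gastric gland markers (5 genes) ran from 25967 to 39561 in conventional corpus, 517 to 873 in conventional rectum and 860 to 11240 in germ-free rectum. They ran from 621 to 705 in conventional and from 1240 to 7109 in germ-free jejunum, the highest on array 3. Pancreatic acinar markers (7 genes) ran from 1283 in conventional rectum to 43432 in conventional jejunum. The former was on array 1 and the latter on array 3, both arrays whose region markers oppose their labels. Squamous epithelium markers (6 genes) ran from 28913 to 34289 in conventional corpus and reached 2735 in germ-free rectum. Mesothelium markers (4 genes) ran from 2218 in germ-free corpus to 8876 in germ-free rectum, with Msln at the floor throughout. Smooth muscle markers (7 genes) ran from 4935 in germ-free jejunum to 28674 in germ-free corpus. Liver markers (5 genes) stayed between 97.5 and 434, and macrophage markers (6 genes) between 1022 and 5280. B cell and leukocyte markers (5 genes) ran from 822 in conventional corpus to 12153 in conventional rectum. The latter was on array 1, the one with jejunal markers, and the other conventional rectum arrays had 4824.5 and 3448.5.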
